A study of Mus musculus with 18 samples.

Results

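The comparison described here set 3 RNA-seq libraries of cells on a soft matrix under a condition labelled TW (Soft-TW) against 3 libraries of cells on the soft matrix alone (Soft). These 6 libraries were chosen by the group in their labels out of 18 libraries in 6 groups of 3, and all genes in the table of counts were used. Every library of the series carries the cell name RAW264.7, a mouse macrophage line, and the labels give no further genotype, agent, dose, time or stiffness value for any group. What TW stands for is not stated in the sources used here, nor is mito, the addition in the group Soft+mito. The series title is about mitochondria passed between cells as a function of matrix stiffness and its effect on metabolism. Besides Soft and Soft-TW, the groups Stiff, Stiff-TW (the same condition on a stiff matrix) and Soft+mito served for 2 further comparisons. The 6 libraries held 16346260 to 16509621 estimated counts each, with 11836 to 11904 genes at 10 or more counts. Levels are given in TPM, transcript abundance scaled for gene length and library size, with one value per library in the order of the replicate numbers. Differences are log2 fold changes from edgeR, with an approximate standard error behind ± and n = 3 libraries per group. A gene was called changed at an adjusted p under 0.05. Such p-values reflect variation among the deposited libraries only, and part of it may be technical.

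Defining markers of macrophages were at or near 0 in these libraries. Adgre1, which encodes the macrophage antigen F4/80, stood at 0, 0 and 0 TPM in Soft against 0.04, 0.14 and 0.07 in Soft-TW, and Ptprc, the leukocyte antigen CD45, at 0, 0.04 and 0.04 and 0.12, 0.16 and 0.27 TPM. Krt8, a keratin of single-layered epithelia, had 698, 717 and 694 TPM in Soft, and in Soft-TW it had 529.8, 522 and 532 TPM. Krt18, another keratin of the epithelial list, had 306, 311 and 305 TPM in Soft and 247, 242 and 252 in Soft-TW. Epcam and Krt19, other epithelial markers, were at or near 0. Of the macrophage and myeloid list Spp1, a secreted phosphoprotein that many cell types make, was the most abundant, with 1516, 1499.6 and 1504 TPM in Soft against 1177, 1179 and 1188 in Soft-TW. Cd14, a receptor for lipopolysaccharide, followed with 26.6, 27.7 and 28.6 and 29.7, 30.1 and 30.8 TPM, and Lyz2 and Cd68 averaged 30.2 and 14.4 TPM in Soft-TW. The labelled cell type is therefore named here as a label only. The summed level of the 25 other myeloid markers in the table was 48.1 to 51.4 TPM in Soft and 104 to 114 in Soft-TW, and this rise is given again beside the immune genes below. In bulk RNA, fewer cells of a type and less RNA per cell cannot be told apart.

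In Soft-TW, genes that respond to low oxygen and genes of glycolysis were higher, interferon-stimulated and inflammatory genes were higher at low to moderate levels, and genes of DNA replication, ribosome assembly, amino acid supply and antioxidant defence were lower. Of 12245 genes tested, 3538 (28.9%) rose and 3426 (28.0%) fell, 56.9% in all. These shares are the background beside which all counts of higher and lower list members in Soft-TW against Soft are to be read. At least 2-fold changes were rarer and lay mostly on one side: 306 genes (2.50%) rose and 50 (0.408%) fell by that much. With library totals in place of TMM as the scale, 2790 rose and 4442 fell, so the share of rises among changed genes was 38.6%, against 50.8% with TMM. That scaling moved the median of all genes by -0.055 on the log2 scale. Ratios of the deposited TPM values lay lower still, by a median of -0.11 against the fitted fold changes, so a gene's TPM values can show a smaller rise or a larger fall than its fold change. Of the changed genes 302 had a mean TPM that moved the other way, 301 of them called higher, and Trib3 and Gpx4 were the named genes among them. They also entered the list counts below. Such genes made up 4 of 19 rises among lysosome genes and 3 of 11 in the unfolded protein response. They made up 2 of 7 rises among YAP and TAZ targets and 2 of 2 among aminoacyl-tRNA synthetases. Tested against a fold of 1.2 in place of no change, 1190 genes rose and 658 fell. Soft and Soft-TW values were free of overlap for 60.6% of the genes (30.8% higher, 29.8% lower), so non-overlap alone sets few genes apart in these data.

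**Figure D1:**
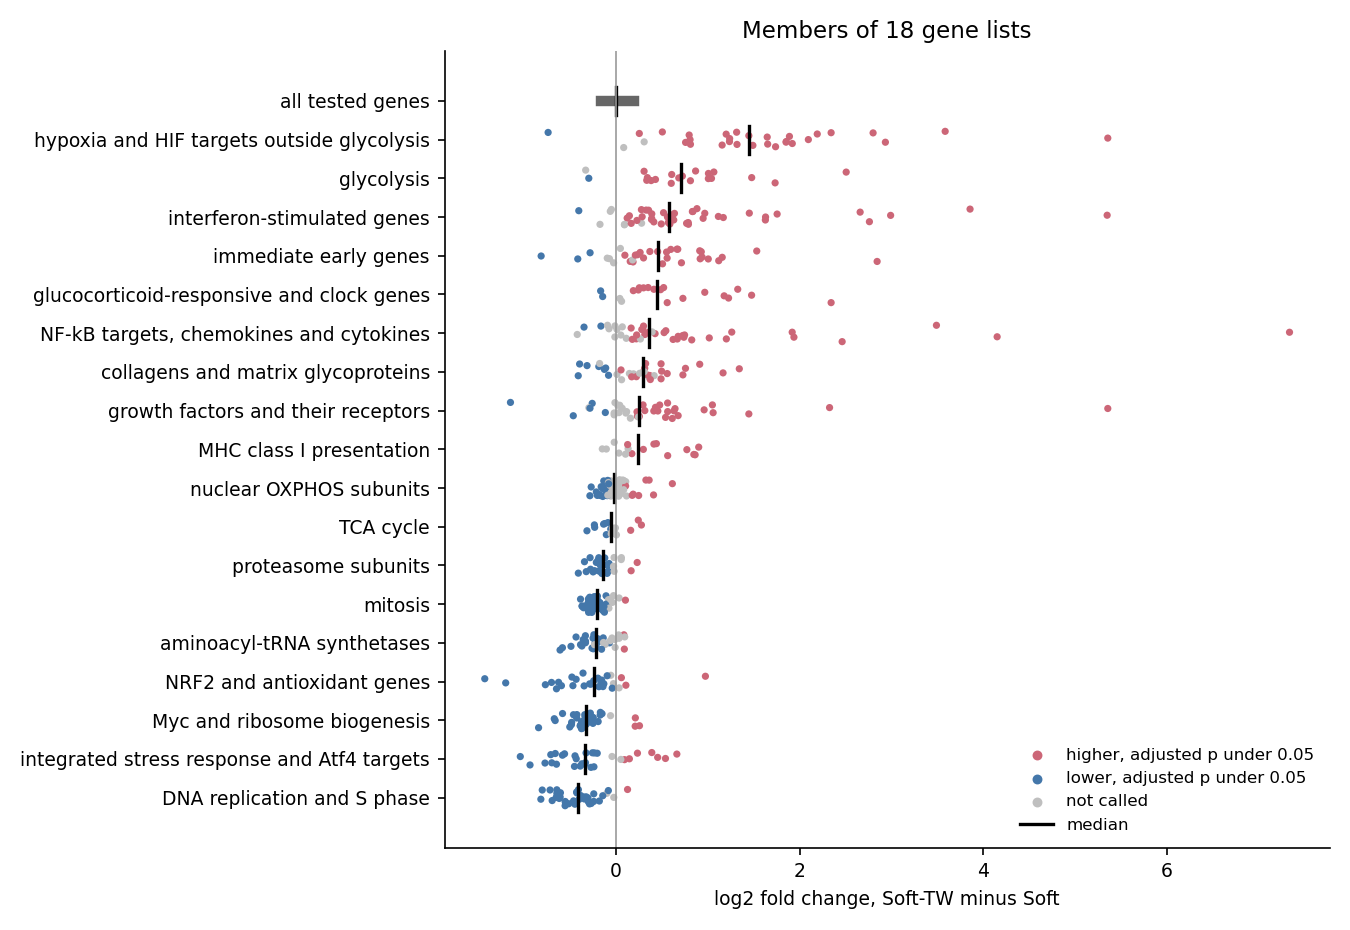
Log2 fold changes (Soft-TW minus Soft, x axis) of the tested members of 18 gene lists, 1 point per gene. Red points are called higher, blue points lower and grey points neither (edgeR, adjusted p under 0.05), black bars are list medians, and the thick bar at the top spans the quartiles of all genes (-0.17 to 0.19). The hypoxia list has the median farthest to the right (1.44) of the lists drawn and the S phase list the one farthest to the left (-0.42). Mycn, with no count in Soft, is not drawn.

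Cells sense oxygen through prolyl hydroxylases of the Egln family, which mark the alpha subunits of hypoxia-inducible factors (HIF) for destruction by the Vhl ubiquitin ligase. When the hydroxylases are idle, HIF alpha pairs with Arnt at promoters that hold the core letters ACGTG and raises genes for glycolysis, pH control, blood vessel growth and mitophagy, the removal of mitochondria. Several of these genes encode parts of the sensing system itself, among them Egln3. HIF is regulated mainly at the level of protein, which RNA libraries do not show.

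Of 31 tested genes in a list of hypoxia and HIF targets outside glycolysis, 28 rose and 1 fell (background 28.9% and 28.0%), and 22 rose at least 2-fold (background 2.50%). The median log2 fold change was 1.44, against -0.004 over all genes tested. Among genes of the HIF pathway itself, Hif1a, the oxygen-regulated alpha subunit, stood at 89.6, 84.8 and 86.1 TPM in Soft and 115, 113 and 113 in Soft-TW (0.51 ± 0.024, adjusted p = 5.31e-37). Its partner Arnt (0.36) and Vhl (0.42) also rose. The hydroxylase gene Egln3 went from 61.7, 59.3 and 61.6 to 129, 129.9 and 128 TPM (1.2 ± 0.031) and Egln1 from 56.4, 59.6 and 56.9 to 120.5, 117 and 119 TPM (1.15 ± 0.027). The hydroxylase gene Egln2 fell (-0.27), as did Hif1an (-0.14), which encodes an asparagine hydroxylase that inhibits HIF. The call of Hif1an was lost without Soft library 3 (-0.12, adjusted p = 0.0852) and without Soft-TW library 1 (-0.13, adjusted p = 0.0546). Hif3a was not called (-0.11, adjusted p = 0.811), and Epas1, the gene of HIF-2 alpha, was too low to test.

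Ero1a, the oxidase that forms disulfide bonds in the endoplasmic reticulum (gene 50527, chromosome 14, 45283087 to 45318572), had the smallest adjusted p in the list. Its level was 240.3, 231 and 224 TPM in Soft against 1652, 1632 and 1631 in Soft-TW, a rise of 2.93 ± 0.019 (adjusted p = 3.66e-120). The 3 Soft-TW libraries lay within a few percent of each other and far above every Soft library. Ankrd37, a small ankyrin repeat gene (gene 654824, chromosome 8, 45996908 to 46000414), rose from 11.0, 11.8 and 11.3 TPM to 124, 126 and 133 TPM (3.58 ± 0.078, adjusted p = 4.36e-68). Collagen-modifying enzymes of the endoplasmic reticulum moved the same way: the prolyl 4-hydroxylase gene P4ha2 went from 20.6, 18.3 and 18.8 to 65.3, 62.2 and 65.3 TPM and the lysyl hydroxylase gene Plod2 from 62.9, 57.4 and 59.4 to 176, 176 and 175 TPM. P4ha1, which encodes another alpha subunit of prolyl 4-hydroxylase, rose by 1.32 ± 0.023.

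The secreted factors of vessel growth included the gene with the largest fold in this list. Pgf, placental growth factor (gene 18654, chromosome 12, 85166637 to 85177785), stood at 0.93, 0.92 and 0.91 TPM in Soft against 30.1, 27.2 and 29.8 in Soft-TW, from 11, 10 and 9 counts to 414, 377 and 412 counts. The rise was 5.35 ± 0.15 (adjusted p = 5.51e-59), and no Soft library reached 1 TPM. Vegfa, which encodes the main vascular endothelial growth factor (gene 22339, chromosome 17, 46016993 to 46032377), rose from 135, 131 and 139 to 337, 339 and 339.6 TPM (1.45 ± 0.023, adjusted p = 1.98e-81). Adm, the vasodilator adrenomedullin, went from 23.6, 25.8 and 24.7 to 86.7, 83.8 and 89.8 TPM. Vegfd (1.06), Vegfc (0.63) and Vegfb (0.23), from the list of growth factors, also rose, by less than Vegfa.

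The carbonic anhydrases of the cell surface, which turn carbon dioxide into bicarbonate and acid, were higher in all 3 Soft-TW libraries. Car9 (gene 230099, chromosome 4, 43507026 to 43513729) stood at 36.3, 37.7 and 37.8 TPM in Soft and 161, 157 and 156 in Soft-TW (2.19 ± 0.037, adjusted p = 2.56e-79). Car12 (gene 76459, chromosome 9, 66712296 to 66766845) stood at 7.75, 7.02 and 7.85 and 49.8, 46.8 and 49.1 TPM (2.80 ± 0.049, adjusted p = 5.57e-77). Bnip3, a mitophagy receptor of the outer mitochondrial membrane (gene 12176, chromosome 7, 138890836 to 138909506), rose from 202, 198 and 204 to 686, 659 and 679 TPM (1.85 ± 0.029). Its relative Bnip3l rose by 0.81 ± 0.023. Ndufa4l2, which lowers complex I activity in hypoxia, went from 13.2, 13.9 and 13.6 to 45.9, 40.1 and 40.8 TPM and Pdk1, the kinase that inhibits pyruvate dehydrogenase, from 26.6, 25.3 and 25.9 to 55.8, 57.0 and 56.5 TPM. For none of these genes did a Soft library overlap a Soft-TW library, which also held for 60.6% of all genes tested (30.8% higher).

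Ndrg1, a stress-responsive gene linked to differentiation, reached 973, 954 and 957 TPM in Soft-TW from 283, 277 and 281 TPM in Soft (1.89 ± 0.019, adjusted p = 1.06e-100). The transcriptional repressor gene Bhlhe40 rose from 9.23, 8.22 and 8.03 to 39.9, 39.6 and 40.1 TPM. The 1 member of the list that fell was Angptl4, a secreted inhibitor of lipoprotein lipase, with 13.3, 12.0 and 13.1 TPM in Soft against 6.25, 7.10 and 7.93 in Soft-TW (-0.74 ± 0.10, adjusted p = 3.29e-10). The glucose transporter gene Slc2a3 (0.08, adjusted p = 0.497) and the lysyl oxidase gene Loxl2 (0.30, adjusted p = 0.556) were not called.

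**Figure D2:**
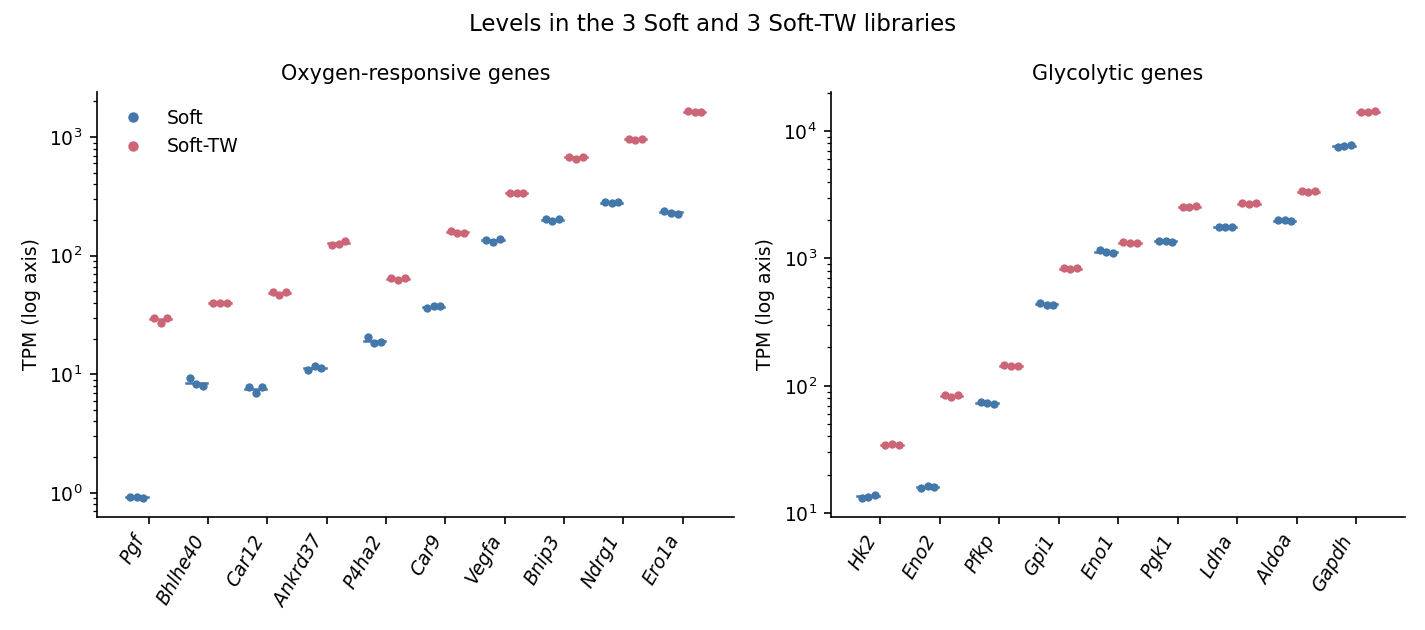
TPM (log axes) of 10 oxygen-responsive and 9 glycolytic genes in each Soft (blue) and Soft-TW (red) library, with horizontal bars at group means. In each gene drawn the 3 Soft-TW points lie above the 3 Soft points, a separation that 30.8% of all genes tested had. The gap is widest for Pgf (5.35 on the log2 scale) and narrowest for Eno1 (0.34).

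The promoter windows of these genes are shown because the members moved together and the pathway has a known core sequence. RefSeq windows of 250 bases before to 50 bases after a start (build GRCm38.p6) were available for 9751 of the genes tested, as 12459 windows. The letters ACGTG, read on either strand, occurred in 25.1% of these windows, in 18 of 30 windows (60%) of the hypoxia list and in 14 of 31 (45.2%) of the glycolysis list. Other lists reached like shares, with 6 of 11 windows (54.5%) for Notch genes, 16 of 32 (50%) for lysosome genes and 10 of 21 (47.6%) for autophagy genes. The letters were no more common in windows of genes that rose at least 2-fold (24.8% of 307). The same letters lie inside CACGTG, the E-box of other factors, so a match does not name the factor. The 4 windows below are those of members that rose at least 2-fold, picked after their values were seen, with every match in capitals.
Ankrd37 (chr8:45999801-46000100, minus strand): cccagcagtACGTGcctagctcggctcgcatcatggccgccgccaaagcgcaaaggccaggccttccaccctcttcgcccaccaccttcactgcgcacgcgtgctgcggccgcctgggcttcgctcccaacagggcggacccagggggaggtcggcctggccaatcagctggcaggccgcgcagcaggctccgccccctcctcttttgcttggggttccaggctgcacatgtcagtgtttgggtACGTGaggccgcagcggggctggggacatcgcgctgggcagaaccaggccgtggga
Ero1a (chr14:45318523-45318822, minus strand): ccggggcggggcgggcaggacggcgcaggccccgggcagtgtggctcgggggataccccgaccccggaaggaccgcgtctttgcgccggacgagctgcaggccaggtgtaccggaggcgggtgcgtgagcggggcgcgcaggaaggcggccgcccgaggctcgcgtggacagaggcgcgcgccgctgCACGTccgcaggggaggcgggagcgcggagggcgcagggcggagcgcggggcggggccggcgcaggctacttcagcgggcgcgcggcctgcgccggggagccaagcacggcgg
Car9 (chr4:43506776-43507075, plus strand): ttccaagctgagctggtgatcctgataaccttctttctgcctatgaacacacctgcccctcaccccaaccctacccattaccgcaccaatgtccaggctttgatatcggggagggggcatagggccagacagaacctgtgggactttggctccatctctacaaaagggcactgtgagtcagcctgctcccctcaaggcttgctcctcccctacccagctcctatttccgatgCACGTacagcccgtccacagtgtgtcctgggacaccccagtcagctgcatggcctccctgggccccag
Bnip3 (chr7:138909457-138909756, minus strand): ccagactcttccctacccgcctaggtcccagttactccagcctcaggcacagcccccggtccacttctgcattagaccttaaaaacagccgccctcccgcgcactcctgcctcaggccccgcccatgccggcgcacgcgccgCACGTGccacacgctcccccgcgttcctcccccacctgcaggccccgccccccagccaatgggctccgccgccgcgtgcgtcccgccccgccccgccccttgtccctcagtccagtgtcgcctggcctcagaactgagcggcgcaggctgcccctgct

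Counted from the start at 0, the matches begin at -241 and -6 in Ankrd37, at -63 in Ero1a, at -18 in Car9 and at -108 in Bnip3, where the palindrome is read from both strands. The 17 tested members of the hypoxia list with a match all rose (median 1.32). So did the 5 with a window and no match, Adm, Car12, Kdm3a, Pdk1 and Pgf (median 1.92). The absence of these letters from so short a window says nothing of the factor, and enhancers were not examined.

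Glycolysis turns glucose into pyruvate and lactate without oxygen, and most of its enzymes were higher in Soft-TW. Of 20 genes, 18 rose and 1 fell (background 28.9% and 28.0%), 7 of them at least 2-fold, with a median of 0.70. The summed level of the list was 21759 TPM in Soft, and in Soft-TW it was 34580 TPM. Gapdh, the dehydrogenase of glyceraldehyde 3-phosphate (gene 14433, chromosome 6, 125161852 to 125166467), had the largest rise in TPM of all genes, from 7476, 7662 and 7715 to 14198, 14149.9 and 14261 TPM (1.00 ± 0.017, adjusted p = 3.21e-78). It is often used as a reference gene, and in these libraries it was not constant. Pgk1, which encodes phosphoglycerate kinase (gene 18655, chromosome X, 106187100 to 106203699), rose from 1377, 1375 and 1345 to 2526, 2533 and 2570.1 TPM (1.00 ± 0.019). Aldoa, an aldolase gene, went from 1983, 1985 and 1959 to 3367, 3305 and 3349 TPM (0.86 ± 0.018) and Ldha, which makes lactate, from 1771, 1755 and 1751 to 2705, 2656 and 2713 TPM (0.72 ± 0.018).

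Isozymes of the same step moved by different amounts. The enolase Eno2 rose from 15.7, 16.5 and 16.1 to 83.9, 82.3 and 84.7 TPM (2.50 ± 0.042), while Eno1, far more abundant, rose from 1156, 1120.3 and 1112 to 1341, 1323 and 1315 TPM (0.34 ± 0.019). The hexokinase Hk2 went from 13.2, 13.4 and 14.0 to 34.2, 34.7 and 34.3 TPM (1.48 ± 0.038), and Hk1 rose by 0.68 ± 0.027. Among phosphofructokinases the order was Pfkp (1.06), Pfkl (0.60) and Pfkm (0.43). Pfkfb4, one of the enzymes that set the level of a fructose bisphosphate activator of glycolysis, fell (-0.30 ± 0.10, adjusted p = 0.0107), and this call was lost without Soft-TW library 1 (-0.23, adjusted p = 0.0832). Ldhb, the other lactate dehydrogenase gene, had -0.33 (adjusted p = 0.295).

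In a list of glucose, lactate and glycogen handling, drawn up after the values were seen, 11 of 14 genes rose and 0 fell. Slc2a1 and Slc16a3 are also members of the hypoxia list, so the counts of these lists overlap. Slc2a1, the glucose transporter of most cells, rose from 132, 126 and 124 to 372, 371 and 369 TPM (1.65 ± 0.023), and Slc16a3, the lactate exporter, rose by 0.80 ± 0.026. Gys1, glycogen synthase, went from 23.4, 22.96 and 23.8 to 49.1, 49.3 and 49.6 TPM and the branching enzyme gene Gbe1 from 107, 100.3 and 101 to 152, 149.5 and 149.9 TPM.

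Transcript counts showed where Mxi1, an antagonist of Myc, rose (1.49 ± 0.036). The curated RefSeq transcript NM_001008542, which starts at base 53310518 of chromosome 19, had 352, 383 and 392 estimated counts in Soft and 1642, 1734 and 1702 in Soft-TW. NM_010847, which starts at base 53329413, had 378, 420.3 and 358 counts in Soft and 271, 295 and 357 in Soft-TW. The share of the upstream transcript among the gene's counts went from 42.4% ± 3.66 to 70.2% ± 2.89 (SD, n = 3) and that of the other from 43.4% ± 3.49 to 12.7% ± 1.6. Both windows are printed to show the 2 starts: the first holds no ACGTG and the second holds it at -66. Another window of the gene (chr19:53329445-53329744), which overlaps the second and is not printed, holds it at -25.
Mxi1 upstream (chr19:53310256-53310555, plus strand): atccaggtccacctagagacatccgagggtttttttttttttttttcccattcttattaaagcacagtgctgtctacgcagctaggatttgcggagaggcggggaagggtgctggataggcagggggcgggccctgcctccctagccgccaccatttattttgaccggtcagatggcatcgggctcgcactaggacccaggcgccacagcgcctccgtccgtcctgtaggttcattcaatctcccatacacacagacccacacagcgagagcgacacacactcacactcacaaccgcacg
Mxi1 downstream (chr19:53329163-53329462, plus strand): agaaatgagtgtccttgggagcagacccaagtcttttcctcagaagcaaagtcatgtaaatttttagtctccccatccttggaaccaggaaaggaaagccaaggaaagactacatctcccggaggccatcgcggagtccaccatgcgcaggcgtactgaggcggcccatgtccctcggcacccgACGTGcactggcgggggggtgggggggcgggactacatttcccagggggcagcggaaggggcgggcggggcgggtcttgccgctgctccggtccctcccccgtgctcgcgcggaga

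Of 24 genes with at least a 2-fold change, 300 counts in every library and 2 or more curated transcripts, 4 had a transcript whose share moved by 25 percentage points or more without overlap: Mxi1, Arhgef3, Creb5 and Cryab. The shift of Creb5 rested on Soft library 1, in which its transcript NM_001327821 had 0 counts: it was 31.5 percentage points with all libraries and 15.6 without that one, by a check added after the data were seen. Pkm, pyruvate kinase of the last step of glycolysis, was different. The muscle type 2 transcript NM_011099 made up 82.2% ± 0.175 of its counts in Soft and 80.7% ± 0.544 in Soft-TW (SD, n = 3), and the type 1 transcript NM_001253883 made up 16.9% ± 0.174 and 18.3% ± 0.484. The shares are the authors' estimates from reads that transcripts of a gene mostly have in common, and were not tested.

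The nuclear genes of mitochondrial respiration changed little. Of 75 subunits of oxidative phosphorylation, 9 rose and 19 fell (median -0.02), shares below those of all genes. Ndufv3, an accessory subunit of complex I, rose from 248, 259 and 258 to 360.2, 367 and 386 TPM (0.61 ± 0.048), and Ndufa6, another, by 0.41 ± 0.040. Atp5g1, a gene for the c subunit of ATP synthase, fell from 300.02, 302 and 320.5 to 235, 246 and 228 TPM, and Cycs, cytochrome c, also fell (-0.27). Among 21 genes of the TCA cycle 3 rose and 9 fell (median -0.05), with Idh3a at -0.32 and Idh2 at 0.28. Mitochondrial ribosomal proteins had 11 of 78 higher and 30 lower (median -0.08).

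Of 14 mitochondrial chaperones and proteases, 3 rose and 5 fell (background 28.9% and 28.0%). The chaperonin genes Hspd1 (-0.39) and Hspe1 (-0.28) were lower. Hspe1 was not called when only the Soft and Soft-TW libraries were fitted (adjusted p = 0.0663). Pink1, the kinase that flags damaged mitochondria, rose from 27.6, 26.4 and 27.3 to 39.0, 36.5 and 38.8 TPM (0.60 ± 0.048), while Tfam, which packages mitochondrial DNA, fell (-0.23) and the fusion and fission genes Mfn1 and Mff were not called. In the list of fusion, fission and mitophagy 3 of 20 rose and 9 fell. The 13 protein-coding genes of mitochondrial DNA were not analysed here.

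Interferon-stimulated genes are switched on by STAT and IRF factors after interferon or foreign nucleic acid, and most of those tested were higher. Of 46 genes, 39 rose and 1 fell (background 28.9% and 28.0%), 11 at least 2-fold, with a median of 0.58. Irf7, the factor that amplifies type I interferon (gene 54123, chromosome 7, 141263183 to 141266499), stood at 1.17, 1.27 and 2.34 TPM in Soft against 12.9, 11.3 and 10.7 in Soft-TW (2.99 ± 0.15, adjusted p = 3.48e-35). Soft library 3 was the highest of its group and still far below Soft-TW. Oas3, an RNA-sensing synthetase of 2-5A, went from 2.30, 2.13 and 1.96 to 5.92, 5.69 and 4.84 TPM (1.45 ± 0.10). Isg15, a ubiquitin-like modifier, went from 15.1, 16.2 and 15.6 to 28.1, 29.8 and 26.9 TPM (0.95 ± 0.12).

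Some of the largest folds came from few reads. Oas2 had 2, 1 and 0 counts in Soft and 36, 54 and 43 in Soft-TW, Ifi44 0, 2 and 1 and 19, 15 and 13, and Rtp4 23, 18 and 7 and 94, 100 and 101. The ratio of summed counts was 44.1 for Oas2 (95% exact interval 14.8 to 216) and 15.6 for Ifi44 (5.01 to 78.2). Ifit2 was the 1 member that fell (-0.41 ± 0.053, adjusted p = 7.87e-11). Cxcl10, a chemokine induced by interferon (-0.06), Rsad2 (-0.05) and Ifit3 (0.28) were not called. Paralogs of the Oas, Gbp and Ifit families share sequence, so their counts are uncertain.

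The interferon-stimulated response element was searched as the letters GAAA, any 2 bases, and GAAA again, on both strands. It occurred in 3.12% of all windows, in 21 of 45 windows (46.7%) of the interferon list and in 5.54% of the windows of genes that rose at least 2-fold. The 20 tested list members with a match had 16 higher and 0 lower (median 0.50), and the 15 with a window and no match, Irf7 and Ifi44 among them, had 13 higher and 1 lower (median 0.56). The 3 windows printed are of members that rose and hold the letters, in capitals: Oas3 at -75, Ifit1 at -104 and -85, and Isg15 at -78, -72 and -66, where 3 matches overlap.
Oas3 (chr5:120777610-120777909, minus strand): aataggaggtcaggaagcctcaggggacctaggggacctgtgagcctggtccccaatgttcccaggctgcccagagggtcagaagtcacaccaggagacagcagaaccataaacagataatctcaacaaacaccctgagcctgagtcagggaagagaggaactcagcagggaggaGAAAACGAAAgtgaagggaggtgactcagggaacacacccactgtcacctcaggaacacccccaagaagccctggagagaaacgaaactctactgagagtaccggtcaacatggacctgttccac
Ifit1 (chr19:34640639-34640938, plus strand): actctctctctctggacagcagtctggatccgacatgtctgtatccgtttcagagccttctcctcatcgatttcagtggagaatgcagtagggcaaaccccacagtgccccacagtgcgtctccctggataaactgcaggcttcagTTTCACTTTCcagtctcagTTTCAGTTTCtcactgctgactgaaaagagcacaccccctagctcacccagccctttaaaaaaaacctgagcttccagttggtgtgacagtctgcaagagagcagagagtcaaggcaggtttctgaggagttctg
Isg15 (chr4:156200769-156201068, minus strand): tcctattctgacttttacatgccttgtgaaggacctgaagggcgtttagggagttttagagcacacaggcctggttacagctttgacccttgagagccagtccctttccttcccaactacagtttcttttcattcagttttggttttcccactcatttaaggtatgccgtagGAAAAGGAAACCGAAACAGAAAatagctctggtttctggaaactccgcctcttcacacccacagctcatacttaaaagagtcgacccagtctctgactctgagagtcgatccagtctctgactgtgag

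Antigen presentation by MHC class I, which displays peptides from inside the cell, had 10 of 16 genes higher and 0 lower (median 0.23). B2m, the light chain of class I molecules, rose from 2505, 2536 and 2518 to 3482, 3454 and 3489.8 TPM (0.56 ± 0.021), and H2-K1, a heavy chain gene with close paralogs, from 689, 684 and 684 to 862, 867 and 860.2 TPM. Psmb8, a subunit of the immunoproteasome, went from 40.2, 37.0 and 40.8 to 60.9, 62.2 and 64.2 TPM and Tap1, the peptide transporter, from 11.1, 10.5 and 10.5 to 18.0, 17.7 and 17.7 TPM. The transactivator gene Nlrc5 was not called (-0.02, adjusted p = 0.761).

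Nos2, inducible nitric oxide synthase and a marker of inflammatory macrophages (gene 18126, chromosome 11, 78920787 to 78960226), had the largest fold among the genes named by size of change. It had 1, 2 and 0 counts in Soft and 171, 180 and 177 counts in Soft-TW, levels of 0.03, 0.06 and 0 and 4.14, 4.35 and 4.29 TPM (7.33 ± 0.31, adjusted p = 7.37e-40). The ratio of its summed counts was 175, with a 95% exact interval of 59.5 to 851 that covers counting error only. The acute phase gene Saa3 stood at 2.29, 2.64 and 4.69 TPM in Soft against 51.3, 57.5 and 57.2 in Soft-TW (4.15 ± 0.22), and Lcn2, which binds bacterial iron carriers, at 0.74, 0.90 and 0.71 and 8.30, 8.01 and 8.98 TPM (3.49 ± 0.30). All 3 genes were low in Soft and clear of overlap in Soft-TW, and 30.8% of all genes tested were higher without overlap.

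Of 41 NF-kB targets, chemokines and cytokines, 28 rose and 2 fell, 9 rose at least 2-fold, and the median was 0.36. C3, the central complement component, went from 12.1, 12.2 and 12.5 to 43.1, 42.7 and 42.1 TPM and Mmp9, a gelatinase, from 2.87, 2.36 and 2.41 to 13.2, 12.9 and 12.9 TPM. The feedback inhibitors of NF-kB rose, with Nfkbia at 0.74 ± 0.039 and Tnfaip3 at 1.26 ± 0.070. Ccl2, the most abundant chemokine here, rose from 521, 534 and 537 to 631, 645 and 632 TPM (0.35 ± 0.027), while Cx3cl1 (-0.35) and Csf1 (-0.17) fell. Vcam1, Nfkb1 and Sod2 were not called. In the list of gp130 cytokines and STAT3 targets 13 of 19 rose and 0 fell, led by Pim1 (1.43), Lif (1.30), the oncostatin receptor gene Osmr (1.2) and the feedback inhibitor gene Socs3, from 24.4, 21.6 and 24.2 to 48.7, 49.3 and 49.4 TPM.

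Most of the myeloid markers that could be tested rose with these immune genes, and some did not. The filter on low counts kept 14 of the 26 markers with values, and of these 10 rose and 1, Spp1, fell (background 28.9% and 28.0%). C1qb (-0.02, adjusted p = 0.978), Aif1 (0.47, 0.306) and Lst1 (0.60, 0.23) were not called. Of the markers too low to test, some had more counts in Soft-TW, but Fcgr1 had 2, 5 and 7 in Soft and 2, 2 and 1 in Soft-TW. A marker near 0 in Soft passed the filter only if other groups had more counts. The filter therefore favours rises in this tally. Lyz2, lysozyme of macrophages and granulocytes, stood at 5.09, 5.07 and 6.60 TPM in Soft and 30.8, 29.0 and 30.8 in Soft-TW (2.53 ± 0.13), and Cd68 at 7.45, 6.22 and 4.03 and 14.7, 15.0 and 13.5 TPM. Csf1r, a growth factor receptor that macrophages depend on, had 1, 3 and 2 counts in Soft and 27, 42 and 26 in Soft-TW. Laptm5, a lysosomal protein of blood cells, had 1, 0 and 0 and 34, 25 and 38 counts, and Ccl3, with a close paralog, 1, 1 and 1 and 37, 42 and 42 (ratio of summed counts 40.1, interval 13.4 to 197). Cd14 differed by 0.23 ± 0.061, and the neutrophil marker S100a8 stood at 17.0, 21.2 and 24.7 TPM in Soft and 41.9, 46.4 and 65.9 in Soft-TW. Of the other neutrophil markers, S100a9 had 0 counts in all 6 libraries, and Ly6g, Elane, Mpo and Cxcr2 were too low to test. The summed level without Spp1 was 62.9 to 70.3 TPM in Soft+mito, 37.4 to 42.6 in Stiff and 67.4 to 73.4 in Stiff-TW. The part of myeloid RNA in the rise of interferon, NF-kB and STAT3 targets was not tested.

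**Figure D3:**
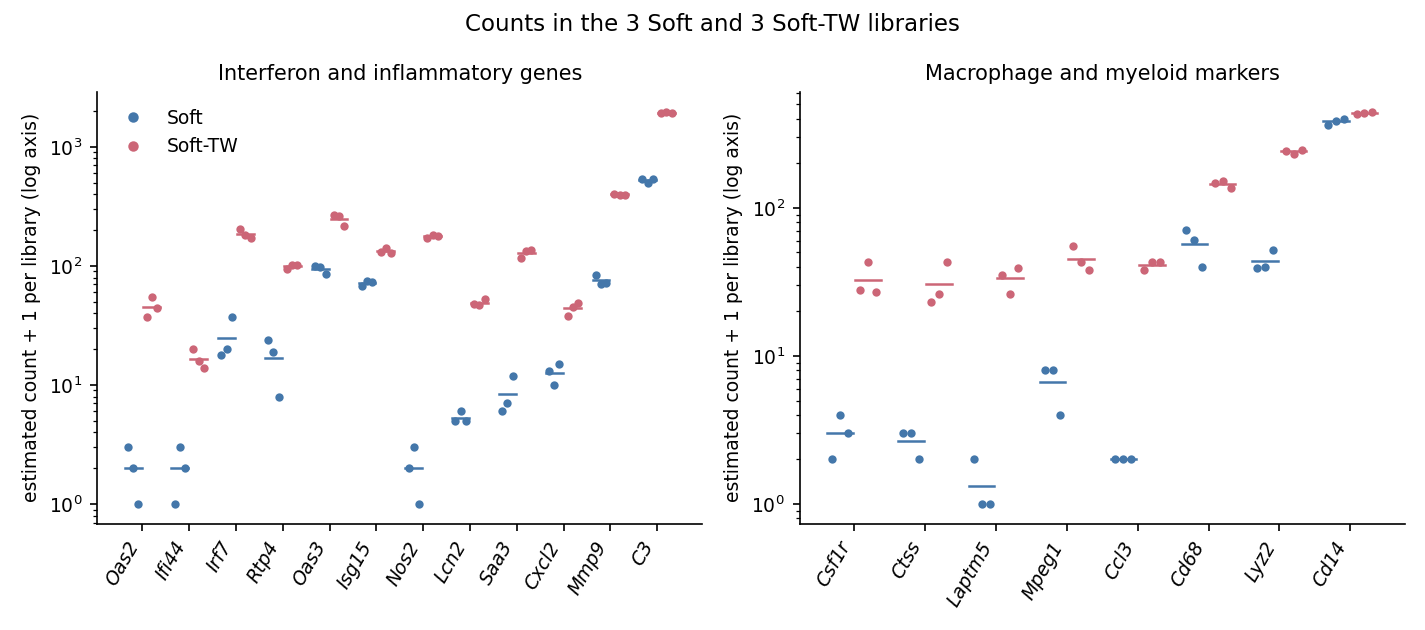
Estimated counts + 1 per library (log axes) of 12 interferon and inflammatory genes and 8 macrophage and myeloid markers in Soft (blue) and Soft-TW (red), with bars at group means. In every gene drawn the Soft-TW points lie above the Soft points, a separation that 30.8% of all genes tested had. Several rest on fewer than 10 counts in Soft, such as Nos2, Oas2 and Laptm5.

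Among the 18397 genes in the table, 15 had no count in any Soft library and more than 3 in each Soft-TW library. Only this direction was searched, so the set holds rises by construction. Their folds are lower bounds against a floor of 3 counts per library. Sprr2h, a cornified envelope gene with close paralogs, had 61, 79 and 86 counts in Soft-TW, at least 25.5-fold higher. Cybb, the NADPH oxidase subunit of phagocytes, had 31, 24 and 27 counts (at least 9.26-fold) and Mycn, a Myc family gene, 21, 22 and 27 (at least 7.9-fold). Rgs1, a regulator of G protein signalling in blood cells, was at least 7.79-fold higher. The signalling adaptors of myeloid cells Tyrobp (6, 10 and 9 counts, at least 2.82-fold) and Fcer1g (6, 10 and 5 counts, at least 2.37-fold) were also among them. The counting error of such counts is large, and a count of 0 allows up to 3.

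Immediate early genes, whose transcription starts within minutes of a stimulus, were mostly higher: 25 of 33 rose and 3 fell (median 0.45). Fos stood at 2.37, 3.77 and 2.48 TPM in Soft against 19.3, 18.8 and 19.5 in Soft-TW (2.84 ± 0.10, adjusted p = 7.95e-49), and its partner gene Junb at 81.9, 83.2 and 87.9 and 168, 167 and 174 TPM (1.12 ± 0.033). Egr1, a zinc finger factor, went from 25.4, 24.1 and 25.6 to 67.7, 64.5 and 69.0 TPM and Maff, a small Maf factor, from 64.4, 61.8 and 63.8 to 129, 132 and 133 TPM. Arc (-0.82), Nr4a2 (-0.42) and Ier5 (-0.28) fell, and Egr2, Nr4a1 and Btg2 were not called. The AP-1 letters TGANTCA, which Fos and Jun dimers bind, occurred in 12.7% of the windows of genes that rose at least 2-fold in 11.1% (5 of 45) of those of genes at least 2-fold lower and in 5.49% of all windows, as a description with no test. In the list of Dusp and Sprouty genes, inhibitors that Ras and MAP kinase signals switch on, 10 of 16 rose and 1 fell, with Spry2 at 1.02 ± 0.076 and Dusp10 at 0.96 ± 0.045.

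Clock and glucocorticoid-responsive genes had 16 of 20 higher and 2 lower (median 0.45). The output gene Dbp rose from 10.1, 12.2 and 10.1 to 27.5, 26.8 and 26.8 TPM and the repressor genes Per1 from 5.66, 6.93 and 6.62 to 14.1, 14.2 and 15.7 TPM and Nr1d1 from 20.0, 20.6 and 19.0 to 40.7, 40.6 and 43.5 TPM. Clock fell slightly (-0.15), as did Fkbp5 (-0.17), a classic glucocorticoid target, and Arntl was not called (0.06, adjusted p = 0.488). The time of day of harvest is not in the labels.

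Secreted growth factors and their receptors had 22 of 39 higher and 5 lower (median 0.25). Areg, amphiregulin, a ligand of the EGF receptor (gene 11839, chromosome 5, 91139599 to 91148432), stood at 34.0, 33.1 and 36.4 TPM in Soft against 158, 162 and 163 in Soft-TW (2.32 ± 0.049, adjusted p = 6.51e-70). Other ligands of that family rose less, Btc by 0.96 and Ereg by 0.68, and the receptor gene Egfr was not called. Pdgfra, a receptor of mesenchymal cells, went from 33.2, 33.3 and 30.3 to 61.7, 62.2 and 63.0 TPM (1.05 ± 0.028). Of 32 genes of TGF-beta and BMP signalling, 20 rose and 6 fell. The ligand genes Bmp2, from 9.74, 8.44 and 8.74 to 25.9, 25.9 and 25.9 TPM, and Inhba, from 6.73, 6.38 and 6.29 to 16.6, 16.5 and 17.1 TPM, were higher, while Id1 (-0.17) and Id3 (-0.21), usual targets of BMP, were lower. The antagonists Grem1 (1.00), Fst (0.86) and Smad7 (0.68) were higher. Of 20 Wnt genes 10 rose and 4 fell, with the receptor gene Fzd7 at 1.17 and Ctnnb1, beta-catenin, at -0.28.

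Among collagens and matrix glycoproteins 18 of 34 rose and 7 fell (median 0.30). Fibronectin (Fn1) rose from 168, 155 and 158 to 242, 242 and 252 TPM (0.73 ± 0.021), versican (Vcan) from 32.0, 29.5 and 30.6 to 48.1, 50.2 and 49.9 TPM and Tgfbi from 15.3, 17.2 and 15.9 to 34.3, 32.9 and 33.3 TPM. Col6a3 rose by 0.91, while Col5a2 (-0.41), Col7a1 (-0.40) and Thbs1 (-0.32) fell. Col1a1 had 0.19 (adjusted p = 0.0902, and 0.0464 without Soft-TW library 3). Matrix proteases and their inhibitors had 13 of 23 higher and 4 lower: Mmp13 rose by 1.2 ± 0.093, Plat, tissue plasminogen activator, by 1.29 ± 0.060, and Plaur, the urokinase receptor, fell (-0.63). In the list of integrins and focal adhesion 16 of 27 rose and 4 fell, with Sdc4 at 0.83 and Itgav at 0.37.

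The collagen receptor Ddr2, the focal adhesion kinase Ptk2, the Rac exchange factor Tiam1 and the GTPase RhoA are named in the series description and are given whatever their change. Ddr2 (gene 18214, chromosome 1, 169972307 to 170110836) stood at 43.5, 40.6 and 42.2 TPM in Soft against 29.7, 29.7 and 30.0 in Soft-TW (-0.38 ± 0.027, adjusted p = 6.56e-25). Ptk2 (gene 14083, chromosome 15, 73205102 to 73423820) rose by 0.18 ± 0.027, with 61.3, 60.5 and 59.2 and 65.2, 62.0 and 63.2 TPM, and Rhoa (gene 11848, chromosome 9, 108306160 to 108337943) by 0.26 ± 0.021, from 398, 401 and 399 to 445, 439 and 441 TPM. Ddr2 was thus lower in all 3 Soft-TW libraries, as were 29.8% of all genes tested, and the changes of the other 2 genes were small. Tiam1 (gene 21844, chromosome 16, 89787111 to 90145600) had only 5, 7 and 6 counts in Soft and 6, 9 and 7 in Soft-TW, a difference that was not called (0.33 ± 0.46, adjusted p = 0.561). Rac1 differed by -0.05 ± 0.021 (adjusted p = 0.0199), and its call was lost without Soft library 1 (0.0637), Soft library 3 (0.0581) or Soft-TW library 3 (0.0689).

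Transcription factors of lineage and position had 17 of 25 higher and 1, Hoxa5 (-0.67), lower. Tbx3 went from 5.95, 6.23 and 5.36 to 13.9, 13.6 and 14.0 TPM, Runx2, a factor of bone and cartilage cells, rose by 0.80, and Prrx1, a factor of limb and other mesenchyme from the list of mesenchymal genes, went from 30.5, 28.3 and 29.4 to 92.2, 93.7 and 91.2 TPM (1.78 ± 0.029). Vim, the intermediate filament of mesenchymal cells, rose from 2208, 2133 and 2156 to 3013, 2939 and 2944 TPM (0.56 ± 0.019) and Snai1 by 0.77, while Snai2 (-0.48), Krt8 and Krt18 (-0.21) fell. That list as a whole was split, with 9 of 21 higher and 8 lower. Actin and SRF genes (5 of 25 higher, 11 lower, median -0.06) and YAP and TAZ targets (7 of 23 higher, 6 lower, median 0.00) had no common direction.

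The genes that make ribosomes and those that make up ribosomes moved in opposite directions. Cytosolic ribosomal proteins had 68 of 77 higher and 1 lower (median 0.28), and none changed 2-fold. Rpl28 went from 3554, 3518 and 3558 to 4522, 4511 and 4635 TPM and the elongation factor gene Eef1a1 from 10009, 9981 and 9992 to 11174, 10934 and 10879 TPM (0.24 ± 0.017). Tpt1, a growth-related gene with the same kind of start sequence as ribosomal protein genes, rose from 6515, 6534 and 6543 to 9029, 8921 and 8919 TPM (0.55 ± 0.022). These genes have many processed pseudogenes, so their counts are less certain. Of 35 genes of Myc and ribosome biogenesis, 4 rose and 30 fell (median -0.33, also with Mycn at its bound). Rrp12, which helps export ribosomal subunits, fell from 12.2, 12.1 and 11.6 to 6.22, 5.82 and 6.39 TPM (-0.84 ± 0.061), and the snoRNP proteins Dkc1 from 55.4, 54.9 and 50.5 to 32.0, 30.3 and 31.0 TPM and Nop56 from 259.8, 256 and 257 to 152, 144 and 149 TPM. Myc itself was slightly higher (0.21 ± 0.030).

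Aminoacyl-tRNA synthetases, which load amino acids on tRNA, had 2 of 35 higher and 23 lower (median -0.22). Lars fell from 139, 131 and 133 to 82.5, 81.7 and 80.3 TPM and Nars from 413, 422 and 419 to 259, 259 and 256 TPM. Proteasome subunits had 2 of 31 higher and 24 lower (median -0.14), with Psmc5, an ATPase of the regulatory cap, from 232, 235 and 225 to 158, 163 and 164 TPM.

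Genes of the integrated stress response, in which Atf4 raises amino acid synthesis and import, were mostly lower: of 31, 7 rose and 22 fell (median -0.33). Chac1, an enzyme that degrades glutathione (gene 69065, chromosome 2, 119351242 to 119354326), fell from 149, 140.2 and 146 TPM to 61.7, 70.6 and 63.8 TPM (-1.04 ± 0.038, adjusted p = 2.86e-47) and was the only member of the list at 2-fold. The serine synthesis genes Psph, from 86.4, 92.1 and 89.3 to 42.6, 39.7 and 43.3 TPM, and Phgdh, from 378, 379 and 374 to 217, 213 and 211 TPM, fell, and Shmt2, which passes serine carbon to folate in mitochondria, fell from 157, 155 and 152 to 87.7, 90.0 and 94.1 TPM. Atf5, a factor of the mitochondrial stress response, went from 148, 152 and 151 to 77.1, 84.0 and 84.2 TPM and Atf4 itself from 686, 673 and 692 to 538, 527 and 543 TPM (-0.24 ± 0.021). Members that rose included Aldh1l2, a folate enzyme of mitochondria (0.66), Ddit3 (0.54), which encodes the stress factor CHOP, and Atf3 (0.45).

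The amino acid response element was searched as TGATGNAA on both strands and was found in 2.31% of all windows and in 10 of 28 windows (35.7%) of this list. The 10 members with a match had 3 higher and 7 lower (median -0.33), and the 15 with a window and no match 3 higher and 10 lower (median -0.34). The window of Chac1, the member with the largest fall, holds the letters at -193, in capitals.
Chac1 (chr2:119350992-119351291, plus strand): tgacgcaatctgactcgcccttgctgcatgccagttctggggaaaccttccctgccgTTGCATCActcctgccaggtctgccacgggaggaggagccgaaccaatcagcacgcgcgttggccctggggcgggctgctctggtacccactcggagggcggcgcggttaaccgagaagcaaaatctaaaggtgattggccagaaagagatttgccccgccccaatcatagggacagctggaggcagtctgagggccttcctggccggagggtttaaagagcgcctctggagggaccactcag

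NRF2 drives the genes of glutathione and thioredoxin, and of 29 NRF2 and antioxidant genes 3 rose and 23 fell (median -0.24). The glutathione transferases Gsta2, with 27.5, 30.3 and 30.5 TPM in Soft and 12.4, 7.89 and 9.84 in Soft-TW (-1.43 ± 0.13), and Gsta1, with 76.0, 66.0 and 62.9 and 32.1, 26.3 and 24.7 TPM (-1.2 ± 0.087), are close paralogs and had the largest falls of this list. Aldh3a1, an aldehyde dehydrogenase, fell from 555, 543 and 557 to 306, 297 and 295 TPM (-0.77 ± 0.022), the cystine importer gene Slc7a11 from 106, 99.4 and 98.8 to 59.5, 60.5 and 59.5 TPM and Srxn1, sulfiredoxin, from 608, 587 and 585 to 367, 361 and 362 TPM. Nqo1, a quinone reductase, fell from 1071, 1071 and 1053 to 737, 723 and 733 TPM and G6pdx, the entry to the pentose phosphate pathway, had -0.47. Of the 3 that rose, Hmox1, heme oxygenase, went from 660.2, 635 and 632 to 1168, 1172 and 1169 TPM (0.97 ± 0.020, adjusted p = 1.96e-71). The other 2 had small changes, superoxide dismutase Sod1 0.11 and glutathione peroxidase Gpx4 0.06, and neither was called with library totals as the scale (adjusted p = 0.0846 and 0.966). The call of Gpx4 was also lost without Soft library 1 (0.284), Soft-TW library 2 (0.306) or Soft-TW library 3 (0.0871), with DESeq2 (0.15) or its size factors (0.0726) and with no filter on low counts (0.0997). Among 17 glutathione transferases, listed after the values were seen, 1 rose and 8 fell.

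Iron and metal genes were split. Tfrc, the transferrin receptor that imports iron, fell from 109, 108 and 103 to 49.3, 49.2 and 50.5 TPM (-0.99 ± 0.026, adjusted p = 1.73e-60), and Aco1, an iron-regulatory protein, also fell (-0.37). The ferritin light chain gene Ftl1 changed by -0.13 ± 0.025 on the log2 scale, as this abundant RNA went from 11009, 11008 and 11009.6 to 9001, 9436 and 9636 TPM. The metallothioneins Mt1, from 1438, 1549 and 1580.4 to 2455, 2394 and 2339.9 TPM, and Mt2, from 1050.1, 1082 and 1100.4 to 2031, 2122 and 2003 TPM, rose.

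**Figure D4:**
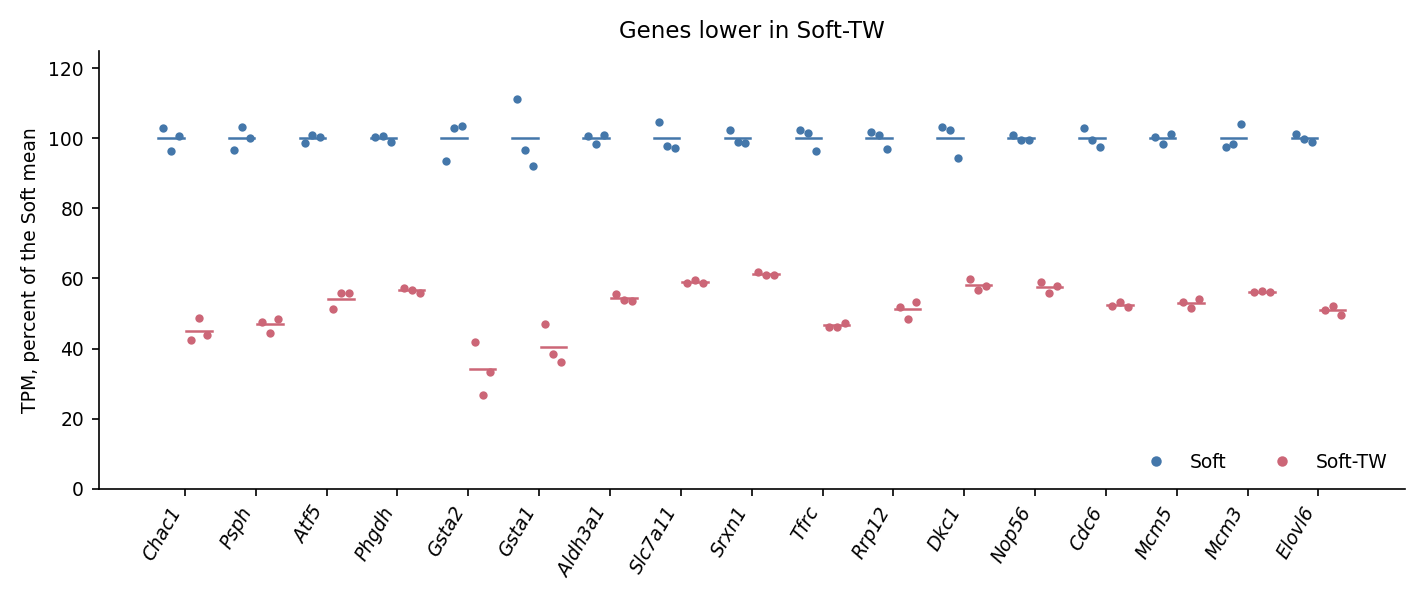
TPM as a percent of the Soft mean (y axis, from 0) for 17 genes lower in Soft-TW (red) than in Soft (blue), 1 point per library and bars at group means. The genes are, from left, of the Atf4, antioxidant, iron, ribosome assembly, replication and lipid lists. No Soft-TW point reaches a Soft point, a separation that 29.8% of all genes tested had, and Gsta2 and Gsta1 vary most between libraries.

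DNA replication and S phase genes were lower as a group: 1 of 36 rose and 33 fell (median -0.42), and none changed 2-fold. Cdc6, which licenses replication origins, fell from 10.8, 10.5 and 10.3 to 5.48, 5.62 and 5.47 TPM (-0.82 ± 0.068), and the helicase subunits Mcm5 from 57.5, 56.5 and 58.0 to 30.5, 29.6 and 31.1 TPM and Mcm3 from 65.4, 66.0 and 70.0 to 37.7, 37.9 and 37.7 TPM. E2f1, the factor upstream of many of them, was the member that rose (0.12 ± 0.047, adjusted p = 0.02), a call lost without Soft library 1 (adjusted p = 0.0761), Soft-TW library 2 (0.115) or Soft-TW library 3 (0.0753), and with library totals as the scale (0.07, adjusted p = 0.212) or DESeq2 (0.0991). Mitotic genes had 1 of 45 higher and 37 lower with smaller changes (median -0.20). Foxm1, a mitotic regulator, went from 44.3, 40.4 and 45.1 to 31.3, 31.1 and 31.5 TPM, Ccnb1, cyclin B1, from 80.6, 82.4 and 82.3 to 61.0, 61.2 and 57.2 TPM, and Mki67, the proliferation antigen, had -0.11.

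Fatty acid synthesis had 4 of 15 genes higher and 9 lower (median -0.14). Elovl6, an elongase of long-chain fatty acids, fell from 52.4, 51.8 and 51.3 to 26.5, 27.1 and 25.6 TPM (-0.86 ± 0.031), and Fasn, fatty acid synthase, from 113, 108 and 107 to 78.9, 80.2 and 78.2 TPM. Cholesterol synthesis was split, 7 of 23 higher and 10 lower (median -0.02), with Idi1 at -0.52 and Sqle at 0.32. In the unfolded protein response 11 of 21 rose and 7 fell: the chaperone gene Hspa5 went from 999, 989 and 988 to 1477, 1422 and 1439 TPM (0.65 ± 0.018) and Xbp1 rose by 0.54. Of 16 heat shock chaperones 4 rose and 8 fell, with Hsp90aa1 from 1363, 1325 and 1326 to 944, 919 and 935 TPM, while the small heat shock gene Cryab rose from 146, 130.2 and 141 to 593, 592 and 582 TPM (2.07 ± 0.032).

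Complement and coagulation genes had 8 of 15 higher and 2 lower (median 0.15), and LXR targets and lipid handling genes 9 of 17 higher and 3 lower (median 0.15). Lysosome genes had 19 of 35 higher and 14 lower (median 0.07), with Psap (0.42) and Npc1 (0.44) higher and Gusb (-0.47) lower. Endocytosis genes (17 of 38 higher, 10 lower), p53 targets (11 of 28, 10), autophagy genes (7 of 24, 7), apoptosis regulators (10 of 28, 10) and fatty acid oxidation (9 of 23, 9) had medians of 0.03, 0.02, 0.04, 0.01 and 0.03. Each of these 5 medians turned negative with library totals as the scale (-0.02, -0.04, -0.01, -0.04 and -0.03). The death receptor gene Fas rose from 1.89, 1.84 and 1.32 to 4.12, 5.09 and 3.88 TPM and Cdkn1a, the cell cycle inhibitor p21, by 0.39, while Trp53 fell (-0.30).

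Among the other genes, the largest rises included Prdm1, a transcriptional repressor that drives terminal differentiation of plasma cells (0.29, 0.27 and 0.31 TPM in Soft, 3.06, 3.49 and 3.39 in Soft-TW, 3.62 ± 0.19), Cdh17, an intestinal cadherin (2.70), and Vwa1, a matrix protein of cartilage (2.69). The largest falls included Ccdc114, a dynein docking gene of cilia, from 15.4, 12.2 and 11.1 to 5.49, 4.29 and 4.85 TPM (-1.23 ± 0.092), Atp13a4, a P5-type ATPase (-1.16), and Slc9a9, an endosomal sodium and proton exchanger (-1.01). Serpinb9b, a protease inhibitor, fell from 269, 268 and 255 to 131, 129 and 133 TPM and Cdh26, a cadherin, from 51.8, 49.5 and 49.2 to 25.04, 25.8 and 25.4 TPM. By TPM, the cytokine Mif rose from 2388, 2501 and 2409 to 3515, 3581 and 3500.2 and the calcium-binding S100a4 had the largest fall, from 12001, 12499 and 12198 to 9452, 10009.6 and 9557. The cathepsin gene Ctsl (-0.09) and Gpnmb, a lysosomal glycoprotein (-0.46 ± 0.018), were also among the abundant genes that fell.

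The same condition on the stiff matrix, Stiff-TW against Stiff, shares no library with the comparison above. There 4345 genes (35.5%) rose and 4176 (34.1%) fell, 69.6% in all, and 510 (4.16%) and 242 (1.98%) did so at least 2-fold. The median size of the change, without its sign, was 0.176 on the soft and 0.269 on the stiff matrix. Of the 306 genes that rose at least 2-fold on the soft matrix, 234 also did so on the stiff matrix, 76.5% of the first list and 45.9% of the second. Of the 50 that fell as much, 23 did on the stiff matrix (46.0% and 9.5%). Across the 12245 genes, which are not independent replicates, the changes on the 2 matrices correlated with r = 0.731 and rho = 0.732. Genes called higher on one matrix and lower on the other numbered 135 (higher on soft) and 167 (lower on soft).

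**Figure D5:**
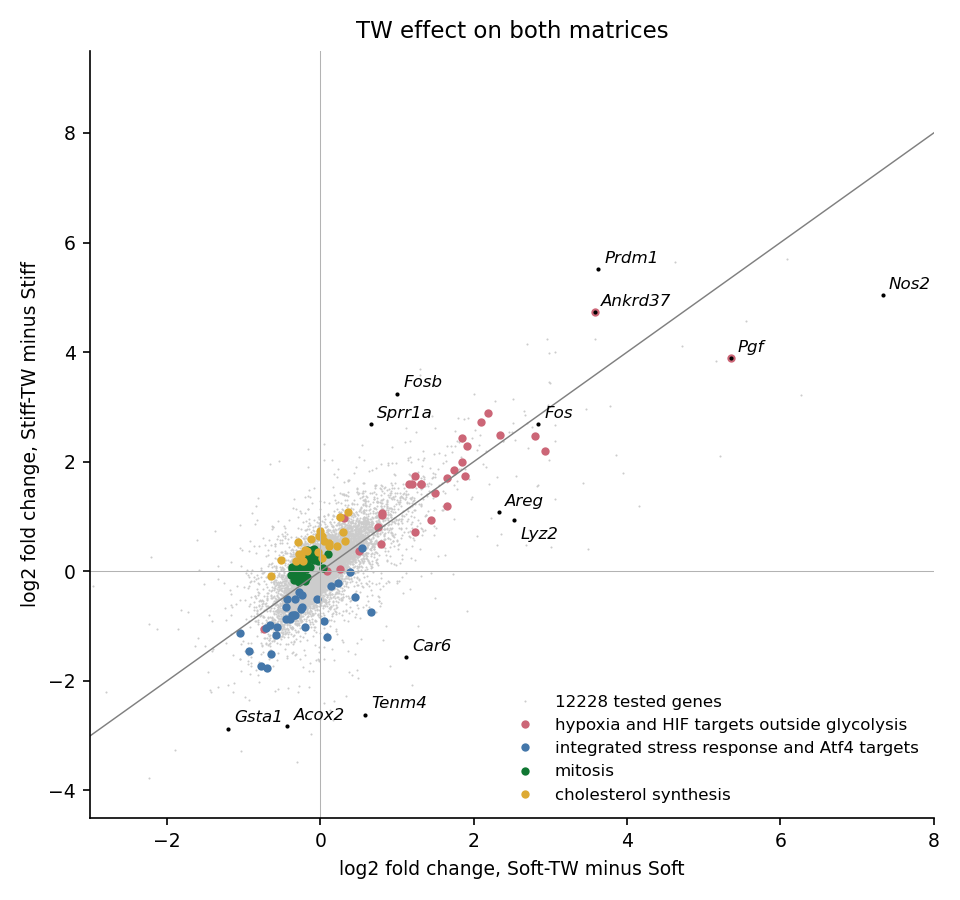
Log2 fold change of each of 12228 genes for Soft-TW minus Soft (x axis) and Stiff-TW minus Stiff (y axis), with the line of equal change. Coloured points are members of 4 lists, and black points are named genes. Hypoxia genes (red) lie along the line, Atf4 targets (blue) mostly below it, and mitotic (green) and cholesterol genes (yellow) above it. Not shown are 17 genes at 0 in a whole group and 3 genes beyond the axes.

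Whether the change differed between matrices was tested as an interaction, the soft change minus the stiff change. It was called for 36.1% of genes, positive for 2417 (19.7%) and negative for 2004 (16.4%), and at least 2-fold for 100 (0.817%) and 86 (0.702%). The hypoxia list had similar medians on soft (1.44) and stiff (1.59), with 10 of 31 interactions positive and 12 negative. Ero1a rose more on soft (0.73 ± 0.026), as did Vegfa (0.52 ± 0.032) and Hk2 (0.65 ± 0.055), and Car9 (-0.70 ± 0.058), Bnip3 (-0.58 ± 0.043) and Pdk1 (-0.51 ± 0.048) rose less. For P4ha2 (-0.15 ± 0.076, adjusted p = 0.111) and Eno2 (-0.03 ± 0.067, adjusted p = 0.741) no difference was called.

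Several gene groups that fell on the soft matrix fell further on the stiff one. Among Atf4 targets 27 of 31 interactions were positive and 0 negative (median change -0.33 on soft, -0.79 on stiff). In the ribosome biogenesis list 31 of 35 were positive and 0 negative (-0.33 and -0.73), in the NRF2 list 22 of 29 and 4 (-0.24 and -0.51) and among proteasome subunits 19 of 31 and 0 (-0.14 and -0.26). Psph had -0.94 on soft and -1.46 on stiff, and Trib3, a pseudokinase induced by Atf4, had 0.09 on soft, where its call was lost without Soft library 3 (adjusted p = 0.0924) or Soft-TW library 1 (0.0504), with library totals (0.333) and with DESeq2 (0.0518), and -1.2 on stiff. Mitotic genes went the other way, with a median of -0.20 on soft and 0.14 on stiff and 39 of 45 interactions negative and 0 positive. Mki67 had -0.11 on soft and 0.40 on stiff. Cholesterol synthesis had 23 of 23 interactions negative (medians -0.02 and 0.46), with Fasn of the neighbouring list at -0.36 and 0.31.

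Of 41 NF-kB targets, chemokines and cytokines, 16 interactions were positive and 6 negative (medians 0.36 on soft and 0.31 on stiff). Saa3 rose by 4.15 on soft and 1.19 on stiff (interaction 2.96 ± 0.30, adjusted p = 6.44e-15), and Lcn2 by 3.49 on soft with 0.40 on stiff (3.09 ± 0.37). The chemokine gene Cxcl2 rose on soft (1.92) and fell on stiff (-0.72), and Cxcl1 did the same (0.28 and -0.81). The myeloid marker Lyz2 followed the pattern of Saa3, with 2.53 on soft and 0.94 on stiff. Other myeloid markers were mixed. The interaction was positive for Csf1r (2.15) and Ccl3 (3.11), from few counts. It was not called for Cd68 (-0.20, adjusted p = 0.485), Cd14 (-0.21, 0.0649) or Laptm5 (-0.85, 0.532). Interferon-stimulated genes had like medians on both matrices (0.58 and 0.59), with 7 of 46 interactions positive and 15 negative.

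Soft-TW was also set against Soft+mito. Both groups are labelled as on the soft matrix, with TW or mito as a further label. This comparison shares the Soft-TW libraries with that of Soft-TW and Soft, so the values are given side by side only. Against Soft+mito, 3677 genes (30.0%) were higher in Soft-TW and 3653 (29.8%) lower, 59.9% in all, with 366 (2.99%) and 62 (0.506%) at least 2-fold. In the hypoxia list 27 of 31 genes were higher and 1 lower (median 1.30), and in the glycolysis list 18 of 20 and 0 (median 0.52). Ero1a averaged 229 ± 2.60 TPM in Soft+mito and 1640 ± 11.9 TPM in Soft-TW (SD, n = 3), and Pgf 0.77 ± 0.26 and 29.0 ± 1.57 TPM. Car12 (2.84 ± 0.050), Ankrd37 (2.89 ± 0.070) and Prdm1 (3.73 ± 0.19) were likewise higher in Soft-TW, and Nos2 had 6.67 from few counts.

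The immediate early genes separated the 2 conditions in the other direction, with 8 of 33 higher and 22 lower in Soft-TW than in Soft+mito (median -0.38). Fos averaged 128 ± 4.68 TPM in Soft+mito and 19.2 ± 0.39 TPM in Soft-TW (-2.72 ± 0.043, adjusted p = 1.55e-81), and Fosb 82.8 ± 6.90 and 8.39 ± 0.41 TPM (-3.29 ± 0.047). Dusp1 (-1.79 ± 0.032) and Klf2 (-1.59 ± 0.12) were also lower in Soft-TW. Oxidative phosphorylation genes were lower too, 55 of 75 with 5 higher, by small amounts (median -0.17). Mitotic (39 of 45 lower, median -0.23) and S phase genes (31 of 36 lower, median -0.37) were lower in Soft-TW, interferon-stimulated genes were higher (38 of 46, median 0.51), and Ddr2 was higher by 0.13 ± 0.028. Gsta1 (-1.60 ± 0.083) and Gsta2 (-1.35 ± 0.13) were lower.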

How the data were processed

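RNA was extracted with TRIzol, poly(A) selected and made into strand-specific dUTP libraries, per the labels' protocols. The authors deposited an estimated count and a TPM value per gene and library, per the file headers, and the same per transcript. The submitters' processing notes name mm10. Which aligner, quantifier, strand setting and annotation were used is not stated in the sources at hand. Of the gene counts 10.9% were not whole (tolerance 0.001), so they were rounded. The table held 18397 genes, of which 18257 (99.2%) matched RefSeq GRCm38.p6 by gene ID. A further 36 per-sample columns and 44 averages in it were not used. The 3 libraries of a group have separate labels, and separate cultures are not stated. Library pairs of Soft or of Soft-TW differed by 1.21 to 2.06 times the sampling noise (chi-square per degree of freedom). Each library was counted as 1 sample, though this spread does not tell separate cultures from splits of 1 culture.

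edgeR 4.0.16 (R 4.3.3, limma 3.58.1) was fitted to all 18 libraries with TMM (factors 0.968 to 1.03), its default filter on low counts (12245 genes kept) and robust quasi-likelihood F-tests, with Benjamini-Hochberg adjustment over all genes tested, for 4 comparisons. Standard errors are the log2 change over the root of F. The common biological coefficient of variation was 0.0175. Tested on simulated data with 12093 genes, the comparison of Soft-TW with Soft called 78.0% of 50 genes changed 1.25-fold, all of those changed 1.5-fold or more, and 0.0589% of unchanged genes. The interaction called 62.0% at 1.25-fold and 92.0% at 1.5-fold. The changed genes of that input were drawn from genes with a mean of at least 50 counts in Soft, so genes with few counts were not covered. Every gene was given the same spread. In that input 11893 of the 12093 genes were left unchanged, whereas 56.9% of genes were called between the deposited Soft-TW and Soft libraries. These rates therefore hold for that input only, and the rates in the deposited data were not tested. DESeq2 1.42.0 and other scalings, filters and library sets were alternatives.

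The rule for named genes took, among changed genes, the 12 largest rises and falls without overlap at a mean of 5 CPM or more, the 10 largest TPM changes each way, up to 4 members per list by adjusted p, the 8 largest interactions and the 6 largest differences from Soft+mito each way, and Ddr2, Ptk2, Tiam1, Rhoa and Rac1. It gave 228 genes, not all printed, and 127 more were named after their values were seen. Some genes are not reported here. The comparison, the lists and the tests were chosen with earlier results of these data known. The lists of HIF subunits, of glucose, lactate and glycogen handling and of glutathione transferases, and the promoters and transcripts shown, were chosen after the values were seen. Ribosomal protein, Gapdh, Oas, Ifit, Gbp, Gsta, Sprr2, H2 and Ccl3 counts are uncertain, since near-identical copies share reads.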

Additional observations from a re-analysis of the deposited data

Results flagged for a closer look

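The change under TW differed between the soft and the stiff matrix, by edgeR's interaction test at an adjusted p under 0.05, for 229 of the 355 named genes, and for 34 the difference was at least 2-fold. These 34 follow as the soft change minus the stiff change on the log2 scale. The interaction was called for 36.1% of all genes. Some named genes were picked by the size of this difference or after their values were seen. Their share therefore cannot be set against that of all genes.

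Larger on the stiff matrix, in the same direction, were the rises of Fosb (-2.24, with 1.00 on soft and 3.24 on stiff), a member of AP-1, of Sprr1a (-2.03), a cornified envelope protein, of Prdm1 (-1.89), Cdh17 (-1.44), Oas3 (-1.38), Ankrd37 (-1.15) and Vim (-1.06), and of Klf2 (-1.04), a factor of the Kruppel family. So were those of Ccno (-1.30), a cyclin-like gene of ciliated cells, Tmprss11b (-1.23), a membrane protease, and Sox2 (-1.16), a stem cell factor. Mmp10, stromelysin 2, rose on stiff and was not called on soft (-1.36), as did Ifit3 (-1.13). On soft Mmp10 was called lower without Soft-TW library 2 (-0.15, adjusted p = 0.0226), with library totals (-0.17, 0.00382) or DESeq2 size factors (-0.12, 0.0407) as the scale, with no filter on low counts (-0.12, 0.0378) and with only the 2 groups in the fit (-0.11, 0.0488).

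Larger on the soft matrix were the rises of Areg (1.24), Pgf (1.46), Lyz2 (1.59) and Nos2 (2.29), and those of Csf1r (2.15), Saa3 (2.96), Lcn2 (3.09) and Ccl3 (3.11). Csf1r, Nos2 and Ccl3 rest on few counts. Ifit1 (1.49) rose on soft and was not called on stiff (-0.33). Gsta1 (1.67) fell less on soft than on stiff, and Acox2, a peroxisomal oxidase, did too (2.39), though its call on soft was lost without Soft library 1 (adjusted p = 0.144), without Soft-TW library 2 (0.247) and with DESeq2 (0.0664).

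Other genes rose on soft and fell on stiff: Tenm4 (3.20), a teneurin, with 0.59 and -2.62, Car6 (2.68), a secreted carbonic anhydrase, Cdsn (2.07), corneodesmosin, Angptl6 (1.46), Cxcl2 (2.64), Cxcl1 (1.08) and Aldh1l2 (1.40). Trib3 (1.29) fell on stiff, and its change on soft was small (0.09), went the other way in mean TPM (95.4 in Soft and 94.2 in Soft-TW) and lost its call under the alternatives given in the report. In each of these genes the Stiff mean was above the Soft mean: Tenm4 averaged 1.41 ± 0.19 TPM in Soft, 1.93 ± 0.13 in Soft-TW, 10.7 ± 0.17 in Stiff and 1.65 ± 0.14 in Stiff-TW (SD, n = 3). Tiam1 (2.61) and Cxcl10 (1.04) fell on stiff and were not called on soft. Tiam1 averaged 0.40 ± 0.10 TPM in Stiff and 0.07 ± 0.07 TPM in Stiff-TW, so this difference also rests on few counts.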

How the results depend on the processing

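Under the alternatives run the counts of changed genes stayed within 1.5 times, apart from those that follow. Tested against a fold of 1.2, changed, higher and lower genes were 1848, 1190 and 658 for Soft-TW against Soft, 892, 467 and 425 for the interaction (63 and 53 at least 2-fold) and 2140, 1391 and 749 for Soft-TW against Soft+mito, as that test is stricter by construction. Genes at least 2-fold lower numbered 103 in Soft-TW against Soft and 118 against Soft+mito with no filter on low counts, and 31 with only the 2 groups in the fit; the cause of the last was not tested. Leaving out 1 library gave, for Soft-TW against Soft, 6424 to 6501 changed genes (3073 to 3348 higher, 3133 to 3395 lower, 292 to 311 and 53 to 64 at least 2-fold). For the interaction it gave 4076 to 4259 (2132 to 2390, 1832 to 1981, 86 to 104 and 78 to 94), and against Soft+mito 6858 to 7012 (3246 to 3486, 3435 to 3614, 349 to 368 and 66 to 81). DESeq2 called 6042 genes, of which 6023 were shared with edgeR. Library totals turned the medians of 5 lists: fatty acid oxidation (-0.03), endocytosis (-0.02), autophagy (-0.01), p53 targets (-0.04) and apoptosis regulators (-0.04). Of 4612 pairs of named gene and setting, 4499 kept the call, 107 lost it (80 of them against a fold of 1.2), 6 gained it and 0 reversed.

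Replicate numbers are shared between groups, but the labels do not say that they pair libraries, and deviations of Soft and Soft-TW libraries with the same number correlated with r = 0.0898, 0.0602 and 0.0139. With the replicate number as a block 7000 genes changed (304 and 48 at least 2-fold), the interaction had 4502 and the comparison with Soft+mito 7376. Depth limits genes with few reads, such as Nos2, Tiam1 and the myeloid markers. DESeq2 and the scalings apply to the counts, and the TPM values are as deposited.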
